A study of Mus musculus with 7 samples.

Results

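Tenascin C (Tnc), fibronectin (Fn1), periostin (Postn), thrombospondin 1 (Thbs1) and the matrix protein SPARC (Sparc) are genes of the provisional matrix, and their open chromatin was followed through caerulein pancreatitis. A peak was assigned to a gene when its summit had that gene as the nearest protein-coding span of GRCm38 within 50 kb. This gave 361 of the 580456 peaks on chromosomes 1 to 19 and X in the 4 lists: 59 in the untreated list and 158, 73 and 71 in the lists of days 1, 7 and 28. The 5 genes were selected on earlier results from the peaks of these same 4 lists, so all values here are descriptions, carry no test and support nothing beyond themselves.

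The assay was ATAC-seq, where a transposase, Tn5, cuts accessible DNA and tags the ends for sequencing. All 4 groups were primary pancreatic epithelial cells of wild-type C57BL/6J mice, either untreated or harvested 1, 7 or 28 days after caerulein, a cholecystokinin analogue that causes acute pancreatitis. Each group is 1 library and 1 peak list. The sources used here do not give the number or age of the mice per library or the marker used for purification. The series also lists 3 DCLK1-positive samples, not analysed here.

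The provisional matrix is laid down when tissue is injured. Plasma fibrin and fibronectin form the first scaffold, and matricellular proteins such as tenascin C, periostin, thrombospondin 1 and SPARC are secreted into it. These matricellular proteins bind integrins, collagens and growth factors more than they bear load. They are low in most resting adult tissue, and fibroblasts and stellate cells are well-known sources of them, though epithelium can make several.

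The libraries differed in depth and enrichment. Their background, worked out from fold and p, ran from 2.52 fragments at day 28 to 5.35 at day 1. In the 59902 merged regions that all 4 lists hold, the median excess of the fold over 1 was 7.40 untreated and 16.6, 15.1 and 11.5 at days 1, 7 and 28. Fold enrichment, the authors' ratio of summit pileup plus 1 to background plus 1, is therefore given with the share of those common regions that had a lower fold in the same list. That share ranks a region over the same set of regions each time.

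The promoters of 3 members were in the RefSeq table (GRCm38.p6), and the 250 bases before a start are shown because each window lay at a region whose rank moved after caerulein. Capitals mark the letters TATAAA, whose first base lies 126 bases before the Tnc start shown and 26 bases before the Postn start. Tnc has a second annotated start in the table, at 64046936, and from it the same letters lie 205 bases away. The window before that start is not shown. Close to the start it also holds TATATAA, a spelling that the search for TATAAA did not cover.

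Tnc, chr4:64047016-64047265, minus strand: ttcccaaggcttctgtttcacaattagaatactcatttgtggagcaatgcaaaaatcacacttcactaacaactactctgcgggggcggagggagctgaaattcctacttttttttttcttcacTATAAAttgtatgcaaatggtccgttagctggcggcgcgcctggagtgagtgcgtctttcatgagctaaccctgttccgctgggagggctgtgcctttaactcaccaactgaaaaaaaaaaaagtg
Postn, the inner of 2 annotated starts, chr3:54360857-54361106, plus strand: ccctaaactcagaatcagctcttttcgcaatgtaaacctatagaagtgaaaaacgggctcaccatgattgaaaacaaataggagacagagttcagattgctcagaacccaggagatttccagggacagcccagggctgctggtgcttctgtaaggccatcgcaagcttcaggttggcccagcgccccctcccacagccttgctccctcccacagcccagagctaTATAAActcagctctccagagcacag
Sparc, chr11:55420081-55420330, minus strand: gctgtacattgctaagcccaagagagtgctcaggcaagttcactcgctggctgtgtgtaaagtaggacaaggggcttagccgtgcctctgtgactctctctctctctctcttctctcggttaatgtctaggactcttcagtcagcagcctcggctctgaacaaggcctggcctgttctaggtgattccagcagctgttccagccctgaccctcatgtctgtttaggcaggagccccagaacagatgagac

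Both strands of these windows were searched for TATAAA and for 3 motifs of transcription factor families. The AP-1 motif was spelled TGANTCA. The TEAD motif was spelled GGAATG, and the motif of the RUNX family was spelled TGTGGT. No motif overlapped another in the windows shown. TATAAA was in the Tnc and Postn windows shown and not in that of Sparc. The window before the outer Postn start, not shown, did not hold it either. Of the 32851 promoter windows of the same length, 12.4% hold it. The AP-1, TEAD and RUNX letters were in none of the windows of these 3 genes, against 6.75%, 12.6% and 14.0% of all windows. The peaks covered 233 of the 250 bases of the Tnc window in the untreated list, all 250 at days 1 and 7, and 236 at day 28.

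At day 1 the 5 genes together held far more, and wider, peaks than before caerulein, and most of the new ones were gone by day 28. Of the 158 day 1 peaks 125 overlapped no untreated peak, or 79.1% (exact binomial 95% interval 71.9 to 85.2, counting error only), where 49.9% of all day 1 peaks linked to a protein-coding gene did. The interval treats peaks as separate draws, though Tnc held 86 of the 125, of which 70 were neighbours inside its span. New peaks were 8 of 10 at Fn1, 14 of 19 at Postn, 3 of 9 at Thbs1 and 14 of 26 at Sparc. Only 3 of the 59 untreated peaks had no day 1 peak, against 37.1% of all linked untreated peaks. The length under the members' peaks was 25.1 kb untreated and 129.4, 52.3 and 31.1 kb at days 1, 7 and 28. Accessibility is measured over all cells of a library, so more cells of a type and more open chromatin per cell cannot be told apart.

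**Figure D1:**
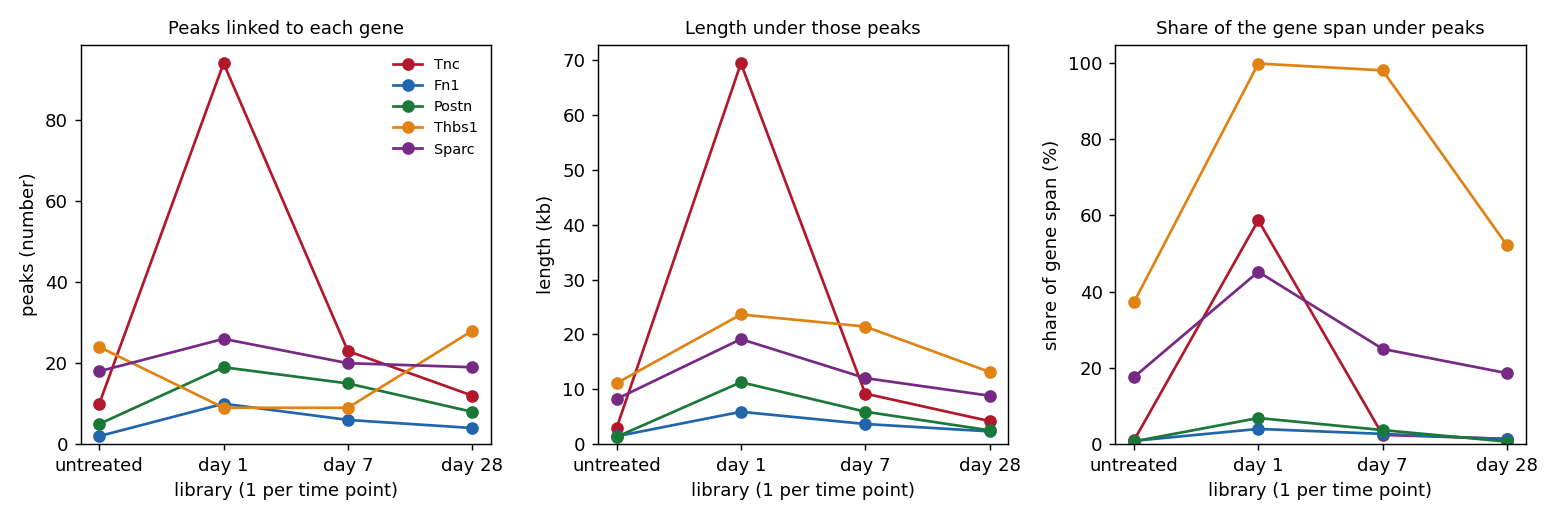
Number of linked peaks (left), length under them in kb (middle) and share of the annotated gene span under peaks in % (right) for each gene, 1 point per library in the order untreated, day 1, day 7 and day 28. Tnc rises from 10 to 94 peaks at day 1 and returns to 12 at day 28, while the Thbs1 count falls to 9 as the share of its span under peaks rises to 99.8%.

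By day 7 the members' 73 peaks included 38 with no untreated peak (52.1%, 40.04 to 63.9), against a background of 33.9%, and 6 of the 59 untreated peaks were missing, against 31.8%. At day 28 it was 20 of 71 (28.2%, 18.1 to 40.1), against 23.0%, and 6 untreated peaks were missing, against 26.7%. Thbs1 had 9 of those 20 new peaks. All 9 lay in 1 merged region of 19306 bp, joined by the wide peaks of days 1 and 7, that also held 18 untreated peaks. Counting merged regions once therefore gave none at Thbs1 by construction, whether or not the 9 peaks were new. For the 5 genes it gave 7 of 37 (18.9%), against 21.9% of all linked regions. Of the 125 peaks new at day 1, 28 overlapped a peak at day 7 (22.4%, against 36.9% of all linked day 1 gains) and 9 a peak at day 28 (7.20%, against 14.5%). Tnc supplied 86 of these 125 peaks, of which 11 overlapped a peak at day 7 (12.8%) and 3 at day 28 (3.49%). The other 4 genes had 39, of which 17 overlapped a peak at day 7 (43.6%) and 6 at day 28 (15.4%), so the pooled shares lay below those of all linked gains with Tnc and not without it.

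Tenascin C, a large hexameric glycoprotein of wounds and tumour stroma, had the widest swing. The untreated list held 10 Tnc peaks, and the later lists held 94, 23 and 12. Day 1 was the highest, day 7 stayed above untreated, and day 28 lay within 2 peaks of untreated. At day 7, 15 of the 23 peaks were new (65.2%, 42.7 to 83.6), against 33.9% of all linked peaks. With links within 10 kb it was 4 of 8, against 32.7%. No untreated Tnc peak was missing at day 1, and 86 of the 94 peaks were new (91.5%, 83.9 to 96.3). A common enrichment floor keeps only peaks whose fold, scaled by the common regions of its library, would have been called in both lists. With it, 55 of 63 were new, against 39.1% of all linked peaks under that rule.

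The Tnc start lies at the high-coordinate end of the gene (chromosome 4, 63959785 to 64047015, minus strand). The region over the start, 64046116 to 64048973, was present in all lists with a fold of 6.26 untreated and of 52.3, 13.7 and 9.37 at days 1, 7 and 28. It ranked above 35.7%, 80.7%, 42.6% and 38.2% of the common regions. The start was prominent at day 1 and below the middle of the common regions in the other lists. The summit pileups behind these folds were 37 (exact Poisson 95% interval 26.1 to 51.0), 331 (296 to 369), 50 (37.1 to 65.9) and 32 (21.9 to 45.2) fragments, intervals that cover counting error only.

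Upstream of Tnc, the regions lay between 12.1 and 47.3 kb before the start. The strongest pair lay 29.5 kb upstream (64076179 to 64077704) and 31.2 kb upstream (64077756 to 64078616). The region at 29.5 kb had folds of 8.73, 83.5, 43.5 and 16.2 in the untreated, day 1, day 7 and day 28 lists and ranked above 50.8%, 92.7%, 81.1% and 58.7% of the common regions. The region at 31.2 kb had folds of 9.06, 78.0, 44.1 and 17.9 and ranks of 52.2%, 91.3%, 81.4% and 61.7%. Both kept a high rank at day 7, when the Tnc start had already dropped, and at day 28 both ranked above their untreated place.

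Several strong upstream regions had no untreated peak. The 3 with the highest day 1 folds lay 46.0 kb (64092212 to 64093462), 37.0 kb (64083655 to 64084353) and 18.4 kb (64065070 to 64065743) before the start. At 46.0 kb the folds were 59.6 at day 1 and 16.4 at day 7, with no peak at day 28. At 37.0 kb they were 47.6, 13.2 and 5.39, and at 18.4 kb 46.0, 6.98 and 3.69, so these 2 regions were still called at day 28. Regions at 39.3 and 40.8 kb, with day 1 folds of 45.4 and 21.7, were called again at day 7 and not at day 28. The region at 12.1 kb, 3.295 fold in untreated epithelium, reached 32.8 at day 1 and 6.18 at day 7 and was the only untreated Tnc region without a day 28 peak.

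Inside the gene, day 1 had a different form. Peaks lay over 0.9996% of the 87.2 kb span untreated and over 58.7%, 2.46% and 1.41% at days 1, 7 and 28. Of the 74 merged regions in the span, 67 were in the day 1 list alone. They were low, with folds from 2.84 to 12.4 (median 5.04) and summit pileups from 17 to 78, and they added up to 40.7 kb in pieces of 465 bp at the median. Scaled for the lower enrichment of the untreated library, 43 of the 67 would have cleared its lowest called fold and 24 would not. The day 1 span coverage was 52.0% with peaks above the common enrichment floor only.

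**Figure D2:**
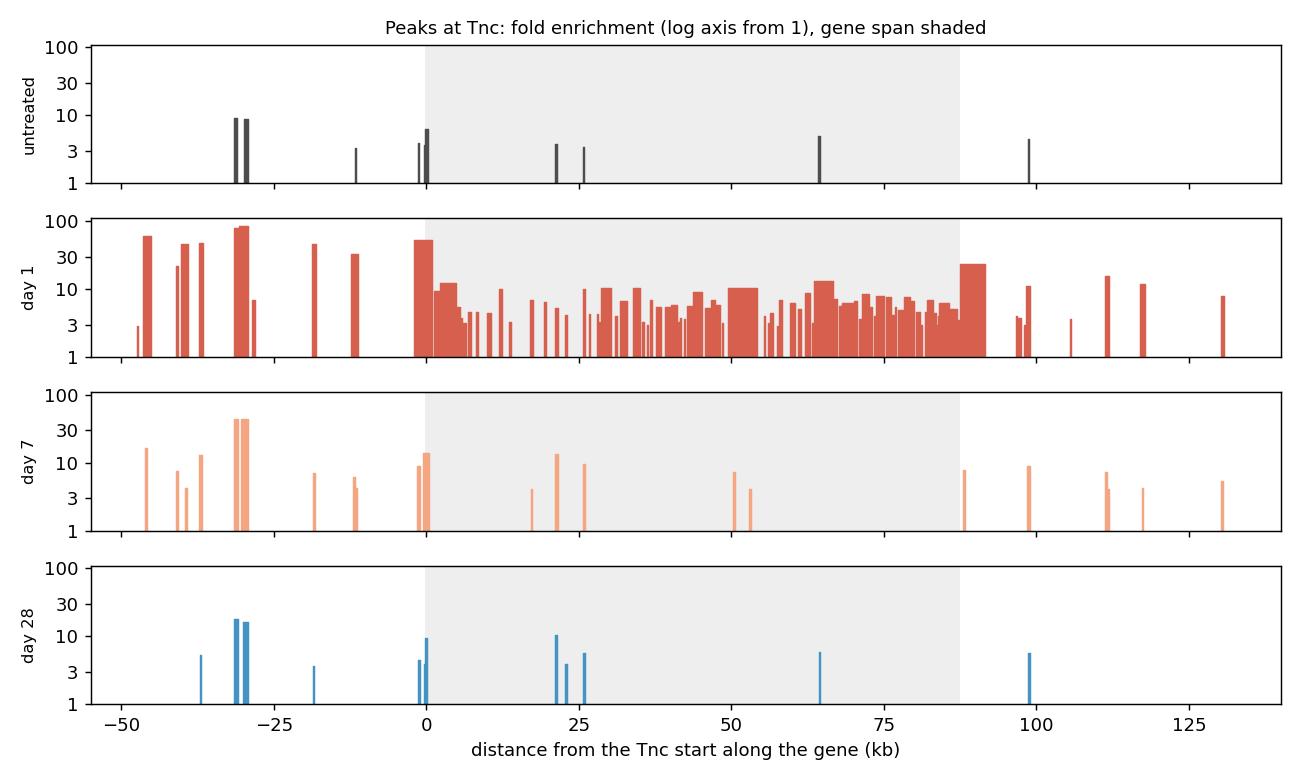
Peaks linked to Tnc in the 4 lists, drawn at their widths along the distance from the Tnc start in kb (transcription to the right), with the fold enrichment at the summit as height on a log axis from 1. The shaded span is covered to 58.7% at day 1 by mostly low peaks, while the upstream pair near -30 kb stands in all 4 lists and is tallest at day 1 (83.5 and 78.0).

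A few Tnc regions in the span did not follow that form. The region 21.3 kb into the gene (64025421 to 64025985) had folds of 3.79, 5.2, 13.4 and 10.5 and ranked above 8.0%, 13.7%, 41.7% and 43.1% of the common regions. It was highest at days 7 and 28 and not at day 1. The region 25.8 kb in (64020987 to 64021421) had folds of 3.46, 10.1, 9.40 and 5.68. Past the far end of the gene, a region at 0.9 kb (63955426 to 63959473) reached 23.3 fold at day 1 and 7.79 at day 7 and was otherwise absent.

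Thrombospondin 1, a trimeric glycoprotein that activates latent TGF-beta and binds CD47 and CD36, had fewer peaks at days 1 and 7 and more open DNA. Its counts were 24 untreated and 9, 9 and 28 at days 1, 7 and 28. The length under them was 11.1, 23.6, 21.4 and 13.2 kb in the same order. Many narrow peaks in the untreated and day 28 lists had fused into few wide ones, so the count went down where the covered length went up. The span (chromosome 2, 118111876 to 118127133, 15.3 kb) was covered to 37.2%, 99.8%, 98.0% and 52.2%.

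The wide peaks were measured directly. At day 1 a peak of 13469 bp (118115279 to 118128747) ran from 3.40 kb after the start to 16.9 kb, past the gene's end, with a summit fold of 57.0. At day 7 a peak of 13062 bp (118113727 to 118126788) lay over most of the gene with a summit fold of 40.6. The peak over the start had widths of 3634, 4287, 3863 and 3625 bp and folds of 29.8, 102.1, 81.1 and 63.6 in the untreated, day 1, day 7 and day 28 lists. Its rank among the common regions was 81.6%, 96.4%, 92.7% and 87.2%, so it was strong in every list and at day 28 ranked above its untreated place.

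**Figure D3:**
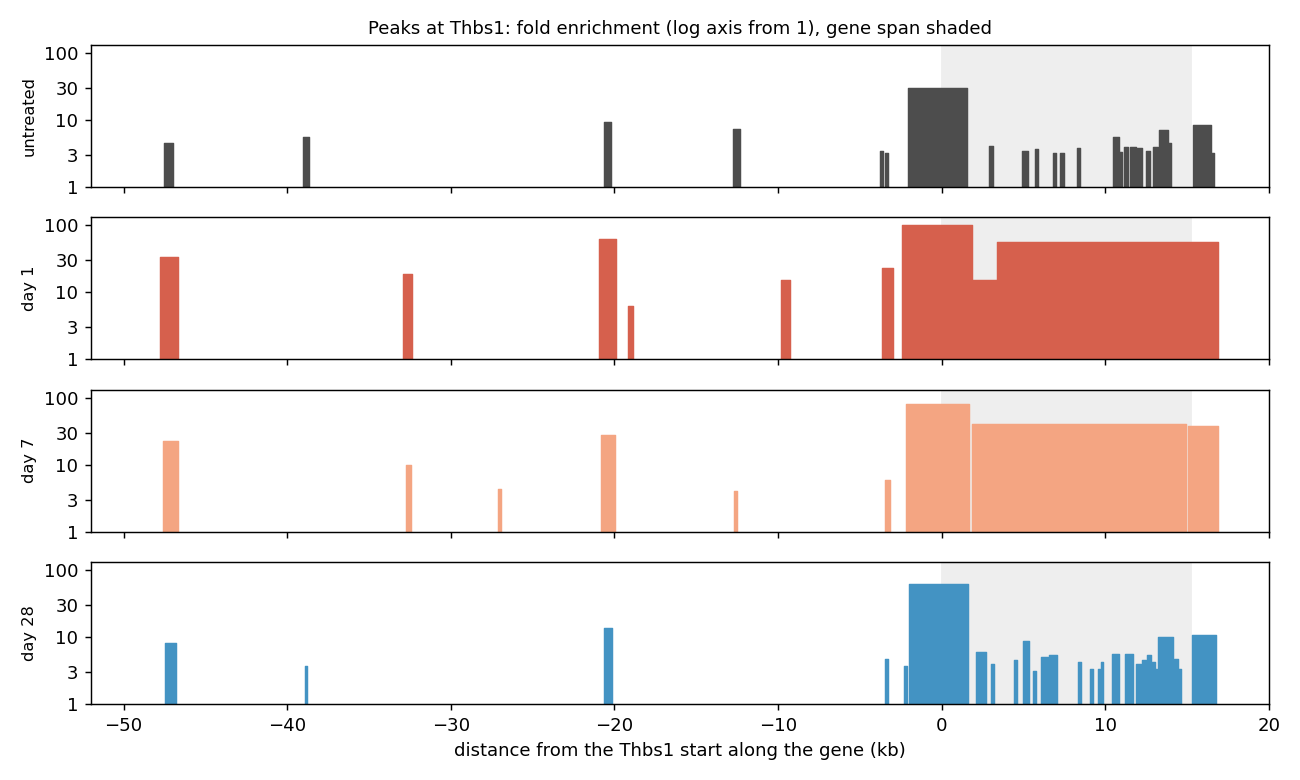
Peaks linked to Thbs1 in the 4 lists, drawn at their widths along the distance from the Thbs1 start in kb, with the fold at the summit as height on a log axis from 1 (a wide peak has its summit fold at 1 point only). The shaded span holds many narrow peaks in the untreated and day 28 lists and peaks of up to 13469 bp at day 1 and 13062 bp at day 7.

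Upstream of Thbs1 the regions at 47.4 kb (118064084 to 118065212) and 20.4 kb (118090923 to 118092000) were in all lists. Their folds were 4.45, 33.6, 22.6 and 8.23 for the first and 9.23, 63.2, 27.7 and 13.9 for the second. The first went from above 16.8% of common regions to 67.9% at day 1 and was at 32.3% at day 28; the second went from 52.9% to 86.1% and was at 53.6%. New at day 1 were regions at 32.6 kb (19.1 fold), 9.5 kb (15.3 fold) and 19 kb (6.303 fold), of which only that at 32.6 kb was called at day 7 (9.94 fold) and none at day 28.

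Of the 3 member peaks lost at day 1, 2 lay upstream of Thbs1 and 1 was 12.3 kb past the end of Sparc. The region at 38.8 kb (118072823 to 118073193), 5.44 fold untreated, had no peak at days 1 and 7 and 3.69 fold at day 28. The region at 12.5 kb (118099147 to 118099569), 7.25 fold untreated, was absent at day 1, 4.03 fold at day 7 and absent at day 28. These went down while the neighbouring regions went up.

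Periostin, a matricellular protein that crosslinks collagen through lysyl oxidase and binds integrins, had 5 peaks untreated and 19, 15 and 8 at days 1, 7 and 28. All 5 untreated regions were in every later list. New peaks numbered 14 of 19 at day 1 (73.7%, 48.8 to 90.9), 10 of 15 at day 7 (66.7%, 38.4 to 88.2) and 3 of 8 at day 28, against 49.9%, 33.9% and 23.0% of all linked peaks. With links within 10 kb, new peaks were 5 of 9 at day 1, 5 of 9 at day 7 and 1 of 5 at day 28, against 48.6%, 32.7% and 22.8%. Postn thus stayed raised at day 7, with 15 peaks after 19, when Tnc had lost most of its day 1 peaks. The share of new peaks at day 7 was alike at Postn and Tnc (66.7% and 65.2%).

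At the Postn gene (chromosome 3, 54359267 to 54391041, plus strand) the 2 annotated starts had each a region. The region before the outer start (54358171 to 54359147) had folds of 12.5, 56.7, 47.0 and 18.7 and ranks of 63.1%, 83.01%, 82.8% and 63.05%. The region over the inner start (54359633 to 54361344), which holds the Postn window printed above, had folds of 4.28, 38.6, 31.7 and 5.68 and ranks of 14.6%, 71.9%, 73.4% and 15.3%. The inner start moved from the bottom of the common regions to well above their middle at days 1 and 7 and was back by day 28.

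Most of the new Postn regions lay beyond the gene, where no other protein-coding gene was nearer. Of the 14 peaks new at day 1, 12 were downstream. The strongest region there, 41.8 kb past the end (54431592 to 54433149), had folds of 3.79, 50.6, 17.7 and 9.65 and ranked above 8.0%, 79.8%, 53.4% and 39.5% of common regions. It joins 1 untreated peak with 2, 1 and 3 peaks of days 1, 7 and 28, and the 9.65-fold day 28 peak does not overlap the untreated one. Neighbours at 43.7 kb (20.2 fold at day 1) and 45.5 kb (18.6 at day 1, 7.25 at day 7) were not called at day 28, nor was the region at 10.8 kb (17.3 and 9.67). The region at 8.4 kb past the end was the only Postn region with no untreated peak and a peak at each later time, with folds of 3.78, 5.91 and 4.26. Of the 5 genes, Postn was alone in having most of its new peaks downstream.

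SPARC, a collagen-binding protein that is an early component of basement membrane and wound matrix, had the peak count that changed least in proportion. It lost 1, 3 and 2 of its 18 untreated peaks at days 1, 7 and 28, where Fn1 and Postn lost none. Its peaks numbered 18 untreated and 26, 20 and 19 at days 1, 7 and 28. In all lists were 10 of its 26 merged regions, beside 4 of 10 for Thbs1. The length under them was 8.24, 19.2, 12.1 and 8.84 kb, and the share of its span (chromosome 11, 55394159 to 55420080, 25.9 kb) was 17.6%, 45.2%, 25.0% and 18.6%. The Sparc change at day 1 joined a widening and strengthening of regions already open with new peaks of low fold (median 3.86, highest 10.4). New peaks were 14 of 26 at day 1 (53.8%, 33.4 to 73.4), close to the background of 49.9%, and with the common enrichment floor 4 of 15, against 39.1%.

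The strongest member region of any list lay in Sparc. It was 14.0 kb into the gene (55404701 to 55407612), with folds of 14.8, 107.1, 40.6 and 19.02 and ranks of 67.7%, 97.1%, 79.6% and 63.5%. The region 8.3 kb upstream (55427821 to 55429097) was high throughout, with 28.8, 104.6, 84.1 and 47.7 fold and ranks of 81.1%, 96.7%, 93.2% and 82.5%. The region over the start (55417819 to 55420473) had 14.7, 61.0, 52.4 and 23.6 fold. Those at the start and at 8.3 kb upstream kept their rank to day 7 better than that at 14.0 kb.

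Other Sparc regions moved more or moved the other way. The region 5.1 kb upstream (55424514 to 55425530) had folds of 4.78, 52.6, 21.2 and 5.68 and ranks of 20.9%, 80.9%, 60.4% and 15.3%. The region 22.5 kb into the gene (55397049 to 55397808) had 6.26, 5.04, 5.64 and 7.10 fold and ranked above 35.7%, 12.8%, 7.34% and 25.5%, lower at every later time. The region 30.1 kb from the start also ranked lower at day 1, at 46.7% against 50.8% untreated.

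**Figure D4:**
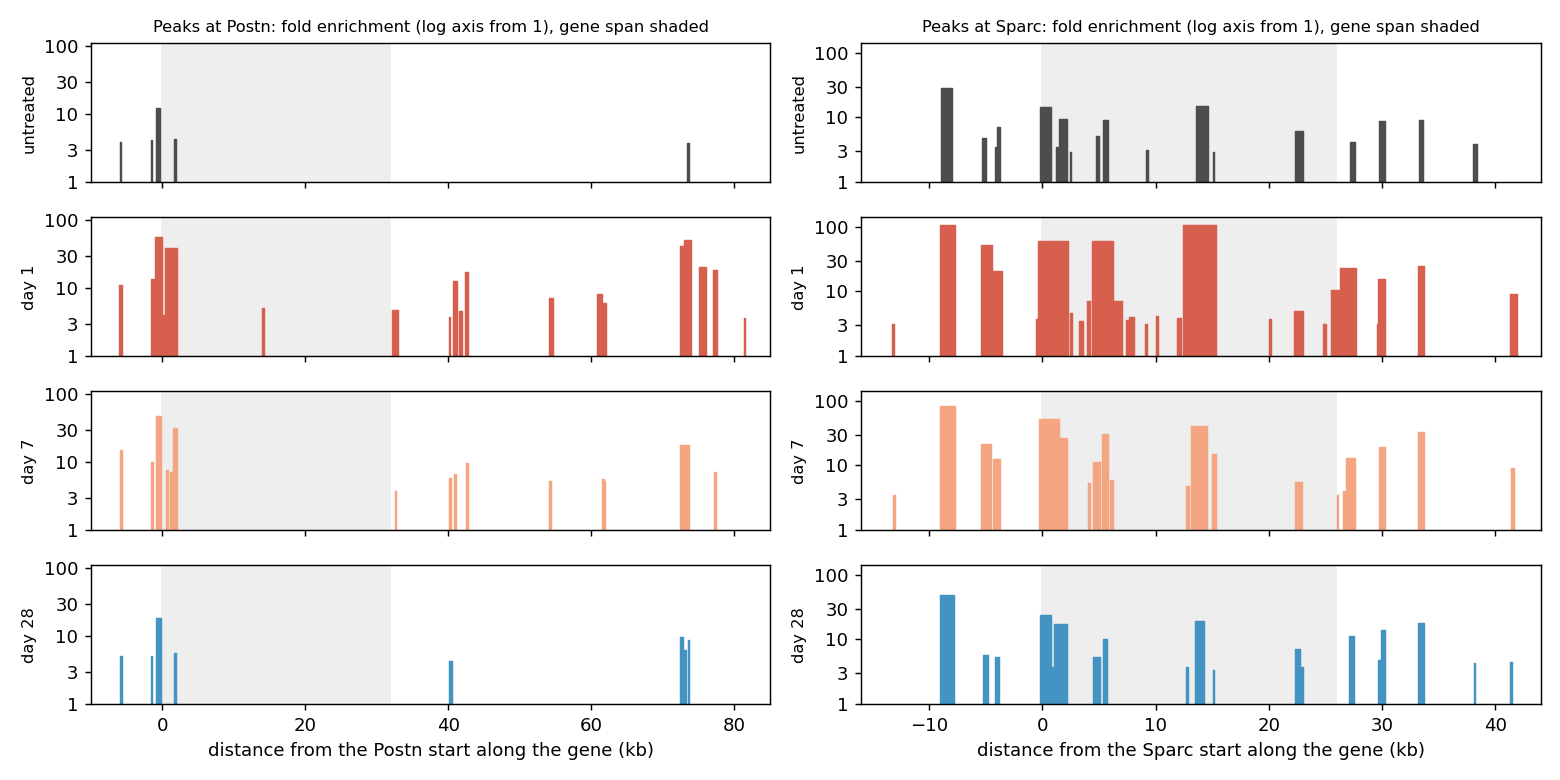
Peaks linked to Postn (left) and Sparc (right) in the 4 lists, drawn at their widths along the distance from each gene's start in kb, with the fold at the summit as height on a log axis from 1 and the gene span shaded. New Postn peaks at day 1 lie mostly to the right of the gene, whereas Sparc has the same main regions in each list, the tallest at 107.1 fold at day 1.

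Fibronectin, the dimeric glycoprotein that integrins assemble into the first cellular scaffold of a wound, had the fewest peaks. There were 2 untreated and 10, 6 and 4 at days 1, 7 and 28. Both untreated regions were present in every list, and 8 of 10 peaks at day 1, 4 of 6 at day 7 and 2 of 4 at day 28 were new, against 49.9%, 33.9% and 23.0% of all linked peaks. With the common enrichment floor 5 of 7 were new at day 1, against 39.1%. Its 67.8 kb span (chromosome 1, 71585473 to 71653280) stayed nearly free of peaks, with 0.883%, 4.02%, 2.71% and 1.31% covered, unlike Tnc, a gene of comparable length.

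The Fn1 start region (71652420 to 71654271) was strong before injury, at 18.8 fold and above 73.1% of common regions. Its later folds were 67.9, 70.4 and 30.7, with ranks of 88.0%, 90.5% and 74.7%. The Fn1 start, like the inner Postn start, had its highest rank at day 7. The other constant region, 30.6 kb upstream, ranged only from 36.9% to 51.1% in rank. The new regions 27.1 kb upstream (12.6, 6.18 and 3.97 fold at days 1, 7 and 28) and 1.2 kb into the gene (6.62, 6.72 and 4.54 fold) were present at all later times, and a region 3.1 kb into the gene (12.4 and 9.40 fold) at days 1 and 7.

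Across the 5 genes, 158 merged regions were followed. The day 1 list alone held 95 of them, or 60.1%, where it alone held 21.9% of all linked merged regions. Tnc had 74 of the 95. Another 27 (17.1%, against 28.0%) were in all 4 lists, 21 were at days 1 and 7 only, and 6 (3.797%, against 3.65%) had no untreated peak and a peak at each later time. By gene, the 27 were 6 of 94 at Tnc, 2 of 10 at Fn1, 5 of 18 at Postn, 4 of 10 at Thbs1 and 10 of 26 at Sparc. Tnc, with 94 of the 158 regions, thus pulled the pooled share down. No member region was in the untreated list alone or in the day 28 list alone.

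The 27 regions in all lists could be ranked throughout. At day 1, 25 of the 27 ranked higher among the common regions than in the untreated list, where 48.9% of all common regions did. At day 7 it was again 25 of 27 (51.8% of all), and at day 28 it was 18 of 27 (50.2% of all). The median rank of the 27 was 39.5% untreated and 71.9%, 60.4% and 42.0% at days 1, 7 and 28. All 4 Thbs1 regions and 5 of 6 Tnc regions ranked higher at day 28 than untreated, against 3 of 5 for Postn, 5 of 10 for Sparc and 1 of 2 for Fn1.

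**Figure D5:**
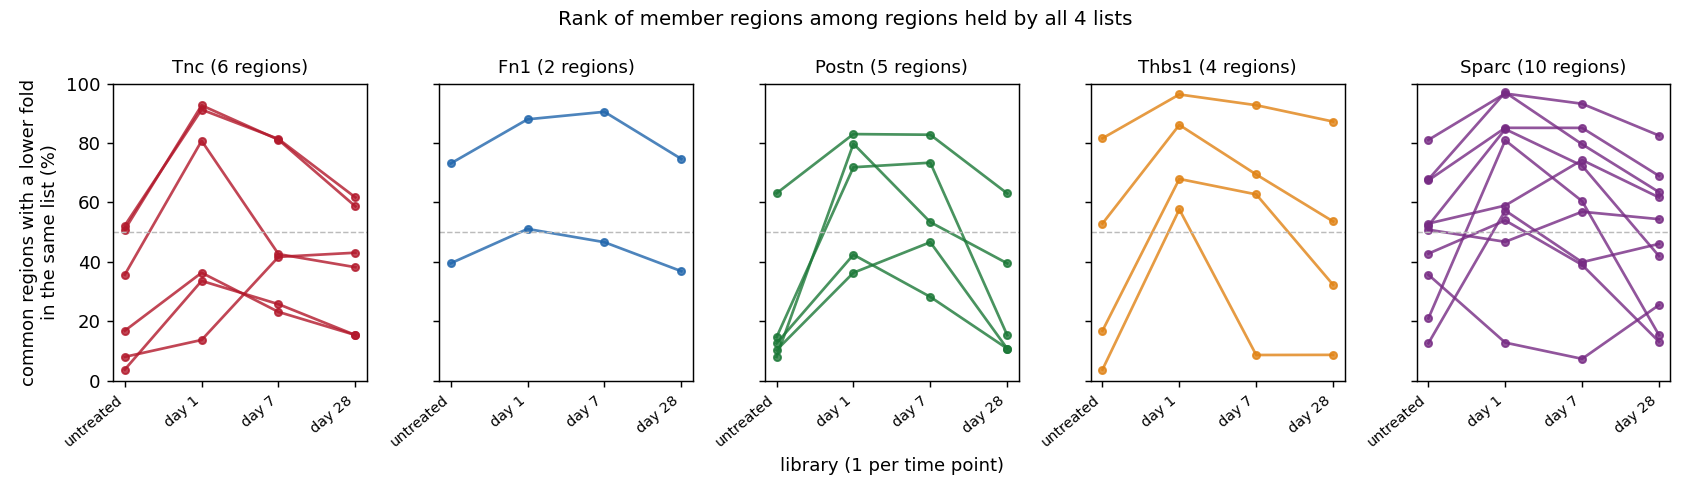
Rank of each member region held by all 4 lists, as the share in % of the 59902 common regions that had a lower fold in the same list, 1 line per region and 1 panel per gene. Most lines peak at day 1 (20 of 27), the Fn1 start and the inner Postn start peak at day 7, and the dashed line marks the middle of the common regions.

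The 50 kb limit left some peaks just outside. Inside it were a Postn peak 49.6 kb away at day 1 (3.62 fold) and the Thbs1 region 47.4 kb away (33.6 fold at day 1). Just outside were a day 1 peak 53.1 kb from Postn (20.3 fold) and a day 1 peak 50.4 kb from Thbs1 (3.47 fold).

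Other genes of the pathway were read from lists of related genes, 2 of which, Spp1 and Prrx1, are also in the cell marker lists. The 22 matricellular relatives had 248 peaks untreated and 404, 285 and 260 at days 1, 7 and 28, with medians of 9, 15, 12 and 11.5 a gene, where the median of all genes with a peak was 4, 4, 4 and 3. At day 1 243 of the 404 peaks were new (60.1%, against 49.9% of all linked peaks) and 56 of 248 were missing (22.6%, against 37.1%). The most new peaks were at Smoc2, a SPARC relative (42 of 56), Thbs2 (29 of 44), the tenascin gene Tnr (25 of 31) and Tgfbi (20 of 37). The most missing were at Smoc1, another SPARC relative (12 of 22). Spock3, a further one, had 2 peaks untreated and none at day 1.

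The 28 genes of provisional matrix and its assembly had 334, 560, 464 and 339 peaks (medians 6.5, 14, 12.5 and 7.5 a gene), and 345 of the 560 at day 1 were new (61.6%, against 49.9%). Fbn1, for the microfibril protein fibrillin 1, had 77 new of 106 peaks and Ltbp1, for a latent TGF-beta binding protein, 66 of 91. The hyaluronan-binding Tnfaip6 had 26 of 33. Fbln5, an elastic fibre gene, went the other way and had lost 27 of 38 peaks. Of the genes for the fibrinogen chains, which liver makes, Fga and Fgb had no peak in any list and Fgg had 3, 6, 6 and 5.

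The 20 matrix receptor genes had 268, 464, 362 and 263 peaks (medians 11.5, 20.5, 17 and 11.5), with 279 of 464 new at day 1 (60.1%, against 49.9%). Cd44, the hyaluronan receptor gene, had 76 new of 89 peaks and Itga5, for the fibronectin receptor chain, 26 of 32. Itgb3 had 24 of 29. Itga9, for a tenascin C receptor chain, had 24 of 46, near the share of all linked peaks. The 24 genes of upstream signals and factors had 478, 576, 521 and 459 peaks (medians 15.5, 18.5, 18.5 and 15), with 283 of 576 new at day 1 (49.1%, against 49.9%) and 160 of 478 missing (33.5%, against 37.1%). At Tgfb2 27 of 38 peaks were new, at Tgfbr2 25 of 40 and at Mrtfa, a serum response factor coactivator gene, 25 of 43. Tead1 had lost 34 of 77 and Smad3 30 of 90, the latter below the 37.1% of all linked peaks.

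Markers of other cells moved in the same libraries. The 16 fibroblast and stellate genes had 198 peaks untreated and 412, 300 and 224 at days 1, 7 and 28. At day 1 284 of 412 were new (68.9%, against 49.9% of all linked peaks) and 11 of 198 missing (5.56%, against 37.1%), with 13 of 16 genes holding more peaks than untreated. Col1a2 had 14 peaks untreated and 35 at day 1, Dcn 4 and 23, and Lum, which had none untreated, 5. Pdgfrb had fewer at day 1 (21 and 19), and Col1a1 (23 and 23) and Des (12 and 12) had the same number. The part of these marker changes in the members' gains was not tested.

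Epithelial markers had fewer peaks at day 1 than in the other lists. The 16 acinar genes had 245, 56, 139 and 259 peaks, and at day 1 209 of the 245 were missing (85.3%, against 37.1%). Cpb1, Cel, Amy2b and Gp2, all genes of acinar secretory proteins, had no day 1 peak. Fewer peaks at day 1 than untreated were held by 14 of the 16 genes, and 1, Ctrb1, held more (5 untreated and 6 at day 1). The 12 ductal and epithelial genes had 171, 108, 155 and 158 peaks, with all 12 holding a peak in every list. Cdh1, for E-cadherin, had 41, 13, 29 and 38 and Epcam 19, 7, 12 and 16, so both were lowest at day 1 without being absent. Of the 12, 10 held fewer peaks at day 1 than untreated. The other 2, Sox9 (18, 21, 14 and 14) and Spp1 (7, 15, 11 and 12), held more. Endothelial genes had 174, 152, 172 and 118 peaks and endocrine genes 28, 27, 35 and 35. The 14 leukocyte genes had 22, 35, 24 and 19. At day 1 24 of their 35 peaks were new (68.6%, against 49.9%) and 11 of 22 missing (50%, against 37.1%). More peaks than untreated were held by 6 of these genes and fewer by 3. Ptprc had 4, 10, 4 and 2 and Csf1r 2, 11, 6 and 2, while Adgre1, Cd8a and Ms4a1 had none in any list. The 3 with fewer were Itgam (7, 2, 1 and 4), Spi1 (5, 3, 4 and 5) and Ncr1 (1, 0, 0 and 1). The part of these changes in the members' values was not tested.

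The genes most like Tnc in how their peaks were spread over the 4 lists were taken from 6992 other genes with at least 22 peaks. They were Shisa6 with 1, 21, 5 and 3 peaks, Depdc5 with 8, 40, 10 and 6, Oprm1 with 1, 14, 5 and 2, Samd12 with 3, 27, 9 and 5, and Caln1 with 2, 14, 5 and 2. The summed difference of their shares from those of Tnc ran from 0.0772 to 0.135, over 4 lists only.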

How the data were processed

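The data are 4 peak lists in the narrowPeak layout, 1 per library. Per the submitters' processing notes, the tools included MACS2 2.1.0.20150731, Bowtie2 2.2.6, deepTools, SAMtools and cutadapt, with the build GRCm38 (mm10). What each did, the read filters and any shift to the transposase cut site are not stated there. The deposited fold enrichment is the ratio of summit pileup plus 1 to background plus 1; the deposited −log10 p and −log10 q measure the same enrichment, and the deposited score is 10 times the −log10 q. The authors' offset gave the summit. Read totals are unknown, so depth is described by that background.

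Pileups were recovered from fold and p with 1 background per list (100% whole within 0.05). Peaks on chromosomes 1 to 19 and X were linked with Python 3.11.15 to the RefSeq gene spans of GRCm38.p6, which give no exons; 0 member peaks were tied between genes. Strands of Tnc, Postn and Sparc came from the promoter table, those of Fn1 and Thbs1 from general knowledge. A peak was new, or missing, when it overlapped no peak of the other list by at least 1 bp; bedtools 2.31.1 gave the same 125. Overlapping peaks of the 4 lists were merged into regions. The routines were tested on simulated intervals. Since every group is 1 library, p-values were not calculated.

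The members and gene lists were chosen with earlier results of these data known. Named regions were the strongest new and missing ones, those nearest a start and those in all lists or all later lists. Named list genes had the most new or missing peaks. Spock3, Lum, Cdh1, Epcam, Fga, Fgb, Fgg, Cpb1, Cel, Amy2b, Gp2, Adgre1, Cd8a, Ms4a1, Col1a2 and Dcn were chosen after their values were seen. So were Ptprc, Csf1r, Itgam, Spi1, Ncr1, Pdgfrb, Col1a1, Des, Sox9, Spp1, Ctrb1 and the Tnc and Sparc regions that went against the rest.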

Additional observations from a re-analysis of the deposited data

How the results depend on the processing

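Each count of new and missing member peaks was repeated with a 50% overlap, a −log10 q of at least 5, links within 10 kb, a common enrichment floor and merged regions counted once. Of 30 such counts over the 5 genes, 24 stayed within 1.5 times; of 150 counts for single genes, 118 did. Among those that did not, new Tnc peaks at day 7 went from 15 to 4 and new Postn peaks at day 1 from 14 to 5 with links within 10 kb, and new Thbs1 peaks at day 28 from 9 to 0 with merged regions. The last was fixed by construction, since those 9 peaks lie in 1 merged region that also holds untreated peaks. It also enters the day 28 count over the 5 genes with merged regions. The common enrichment floor left 78 of 110 peaks new at day 1 (39.1% of all linked peaks), links within 10 kb left 17 of 43 new at day 7 (32.7%) and 0 of 48 missing at day 1 (36.8%), a −log10 q of at least 5 left 11 of 54 new (15%) and 2 of 50 missing (20.3%) at day 28, and merged regions gave 7 of 37 new at day 28 (21.9%); the cause was not tested, except that fewer peaks qualify by construction. The common floor, added after seeing the data for span coverage, gave 52.0% for Tnc and 36.4% for Sparc at day 1. No paired analysis was possible because each group has 1 library, and no library could be left out of a group.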

Other observations

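Wide cover of the gene span at day 1 was also seen at other matrix genes. Among 13887 protein-coding genes of at least 10 kb, the share of the span under peaks had a median of 3.78% untreated and 4.76% at day 1. Thbs1 and Tnc were among the 15 genes with the largest rise from untreated to day 1. So were Col1a1, for a fibrillar collagen chain, with 16.7% untreated and 74.0%, 25.6% and 15.3% at days 1, 7 and 28, and Tnfaip6, with 6.49%, 55.5%, 72.3% and 6.11%. Has1, a hyaluronan synthase gene (18.1%, 61.1%, 64.5% and 24.8%), and Itga5 (17.9%, 55.0%, 55.4% and 21.1%) were also among them.

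The cover of Tnc and Col1a1 was lower at day 7 than at day 1, whereas more than 50% of the spans of Thbs1, Tnfaip6, Has1 and Itga5 was still covered at day 7. By day 28 Thbs1 was the only gene of these 6 with over 50% of its span under peaks. These genes were picked for their values, with 1 library per time, and the difference between the 2 courses was not tested.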
